A study of Mus musculus with 48 samples.

Results

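The 9 genes described here encode the best known costimulatory and inhibitory coreceptors of T cells: Ctla4, Icos and Cd28, Pdcd1, Lag3, Tigit, Havcr2, Btla and Cd200. They were taken by symbol from the 53345 genes of the deposited matrices and all 9 were found and passed the filter on low counts in every comparison. RNA was sequenced from spleen in 32 libraries of regulatory T cells (Tregs) and in 16 of conventional CD4 T cells (Tcons) of mice that also gave a Treg library.

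All mice were female C57BL/6 animals, an inbred laboratory strain, aged 8 to 12 weeks. Each received PBS or 25 µg of a human IL-2 fused to an antibody Fc part on day 0, under the skin, and the spleen was taken on day 4. The IL-2 was the wild-type protein (WT) or an attenuated mutein, H16R with 1 amino acid substituted or 3x with 3 substituted. Every mouse, PBS controls included, was also given 2 doses of 500 µg of antibody, either an isotype control or an antibody that blocks MHC class II (MHC II block), the molecule that presents antigen to the receptor of CD4 T cells. The 4 treatments in the 2 antibody arms gave 8 Treg groups of 4 libraries, and the Tcons formed the same 8 groups of 2. Each library was stated to come from 1 mouse, although WT isotype replicates 3a and 3b carry the same mouse code; they were counted as 2 samples, since the study states 4 mice a group and their counts differed by more than sampling noise, but libraries of 1 mouse can differ as much, so that 2 mice are not shown. Leaving out 3a ended the Btla call with WT against PBS and the Havcr2 call with block against isotype under WT, and leaving out 3b ended the Icos call with 3x against WT and added Cd200 to the calls with block under WT. The study asked how far the response of Tregs to IL-2 and to muteins rests on the signal through the T cell receptor. Tregs were selected with beads that bind CD25, the IL-2 receptor chain encoded by Il2ra, and Tcons were the CD4 cells that remained, so that the Treg fraction is defined by a gene that itself answers to IL-2, and each fraction can hold cells of other kinds.

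A T cell needs a second signal beside that of its antigen receptor, and coreceptors deliver it. CD28 binds CD80 and CD86 on the antigen presenting cell and promotes activation, CTLA-4 takes the same ligands away from it, and ICOS is a costimulatory relative of CD28. PD-1 (Pdcd1), LAG-3, TIGIT, TIM-3 (Havcr2) and BTLA restrain T cells through ligands of their own, LAG-3 by binding MHC class II itself, and CD200 is a ligand that restrains cells with the CD200 receptor. Tregs are known for constitutive CTLA-4, and activated or effector Tregs for more ICOS, TIGIT, PD-1, LAG-3 and TIM-3.

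In the GENCODE vM21 annotation of the mouse genome GRCm38, Cd28, Ctla4 and Icos lie side by side on the plus strand of chromosome 1, at 60716800 to 60773359, 60887000 to 60915832 and 60977927 to 61000320. Pdcd1 is also on chromosome 1 (94038305 to 94052553, minus strand), and Btla (45224315 to 45257670, plus), Cd200 (45382135 to 45409053, minus) and Tigit (43648867 to 43664146, minus) are on chromosome 16. Lag3 is on chromosome 6 (124904361 to 124911705, minus) and Havcr2 on chromosome 11 (46454935 to 46481255, plus). On the same strand a ribosomal protein pseudogene, Rpl18-ps1, overlaps Ctla4 and an unclassified transcript, Gm37039, overlaps Icos, and reads in these overlaps could be split between the genes. The start regions of 4 members that rose with IL-2 are shown here, as RefSeq gives it for GRCm38.p6, from 250 bases before the start of transcription to 50 after it, so that they can be read beside the values. The start that RefSeq gives for Ctla4 lies inside the longer GENCODE gene. Capitals mark the letters TTCNNNGAA (bound by STAT factors), TGANTCA (AP-1) and GGAAA (the core of the NFAT motif), searched on either strand.
Ctla4, chr1:60908775-60909074, plus strand: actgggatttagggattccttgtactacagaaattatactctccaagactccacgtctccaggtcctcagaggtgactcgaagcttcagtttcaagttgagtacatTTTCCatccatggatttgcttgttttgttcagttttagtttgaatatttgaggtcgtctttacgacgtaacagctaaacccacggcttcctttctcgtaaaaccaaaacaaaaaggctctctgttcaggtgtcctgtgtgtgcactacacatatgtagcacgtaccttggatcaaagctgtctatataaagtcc
Pdcd1, chr1:94052504-94052803, minus strand: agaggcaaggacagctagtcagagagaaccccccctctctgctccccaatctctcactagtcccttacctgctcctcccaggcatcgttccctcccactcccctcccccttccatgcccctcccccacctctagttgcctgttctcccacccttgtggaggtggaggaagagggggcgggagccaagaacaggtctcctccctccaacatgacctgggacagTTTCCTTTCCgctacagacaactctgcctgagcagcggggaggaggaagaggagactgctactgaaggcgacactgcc
Tigit, chr16:43664135-43664434, minus strand: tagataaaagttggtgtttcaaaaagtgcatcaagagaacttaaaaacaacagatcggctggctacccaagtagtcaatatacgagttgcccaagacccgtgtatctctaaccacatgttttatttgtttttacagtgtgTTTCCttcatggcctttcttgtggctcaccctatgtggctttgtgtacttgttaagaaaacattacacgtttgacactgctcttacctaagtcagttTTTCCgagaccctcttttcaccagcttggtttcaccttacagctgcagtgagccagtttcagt
Havcr2, chr11:46454681-46454980, plus strand: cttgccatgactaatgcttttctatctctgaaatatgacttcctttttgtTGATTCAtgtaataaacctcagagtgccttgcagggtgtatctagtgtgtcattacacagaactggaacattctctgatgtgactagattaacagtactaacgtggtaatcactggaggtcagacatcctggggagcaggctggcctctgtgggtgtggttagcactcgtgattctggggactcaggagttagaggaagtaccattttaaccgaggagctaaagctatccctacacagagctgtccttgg
Start regions of 6 of the 9 members were in the table used, those of Btla (chr16:45224087-45224386, plus strand) and Cd200 (chr16:45409004-45409303, minus strand) included. None of the 6 windows held TTCNNNGAA, a motif found in 8.3% of all 32851 windows of the same length. TGANTCA, found in 7.81% of all windows, stood in that of Havcr2 alone, 200 bases before the start. GGAAA, found in 61.3%, stood in the windows of Ctla4, Pdcd1 and Tigit, and the windows of Btla and Cd200 held none of the 3 motifs. A match is a description of the letters in the window, and no binding was measured.

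Depth ranged from 18280000 to 51240000 expected counts per Treg library and from 31310000 to 51950000 per Tcon library. Isotype PBS replicates 2, 3 and 4 were shallower than every isotype IL-2 Treg library. Replicate 4 was the shallowest, with 9330 genes without a value against 7036 to 7337 in other Treg libraries. It was the more outlying extreme of its group for Ctla4, Cd28, Pdcd1, Lag3, Tigit, Havcr2 and Btla, but was not flagged as an outlier. With all libraries thinned to the smallest, the calls against PBS with isotype were 20, as without thinning. Levels are given as CPM, scaled for depth with TMM over all 48 libraries, and comparisons between genes use FPKM, which also divides by transcript length. Foxp3, the factor that defines Tregs, lay between 687 and 1250 CPM in the Treg libraries and between 46.8 and 183 CPM in the Tcon libraries, and Il2ra between 306 and 935 and between 17.8 and 72.7 CPM, so the labels held, and Foxp3 was low but present in every Tcon library. In Treg libraries 8 B cell markers summed to 685 CPM in isotype PBS replicate 1 and to 604 CPM in MHC II block WT replicate 1, against 24.6 to 139 CPM in the others. The latter library also had the highest sum of 8 myeloid markers, 671 CPM, against 203 CPM in the former and 67.8 to 167 CPM in the others. None of these markers was at 0 throughout the Treg libraries. Calls of members in Tregs that change without this pair of libraries are given with the value without them. Other genes were not tested without the pair. In bulk RNA, fewer cells of a type and less RNA per cell cannot be told apart.

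Ctla4 was the most abundant member in every Treg group, and Havcr2 the least abundant in 7 of the 8. In Tregs of PBS mice with isotype antibody, Ctla4 stood at 555 ± 84.1 FPKM (SD, n = 4), followed by Cd28 at 105 ± 25.9 and Tigit at 104 ± 15.3 FPKM, whose libraries overlapped. Icos followed at 58.6 ± 11.3, then Btla at 37.2 ± 3.35, Lag3 at 32.3 ± 10.4, Pdcd1 at 20.5 ± 2.83 and Cd200 at 16.7 ± 1.05 FPKM, and from Btla to Cd200 each neighbour in that order overlapped with the next. Havcr2 came last with 1.61 ± 0.519 FPKM. Under WT IL-2 Tigit reached 325 ± 28.9 FPKM and Icos 128 ± 17.5, both above Cd28 at 109 ± 3.42 without overlap. With MHC II block and 3x mutein, Lag3 at 178 ± 25.4 FPKM stood above Cd28 at 97.1 ± 3.51 FPKM, and Havcr2 at 19.8 ± 3.26 stood above Cd200 at 12 ± 0.968 FPKM, each again without overlap.

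**Figure D1:**
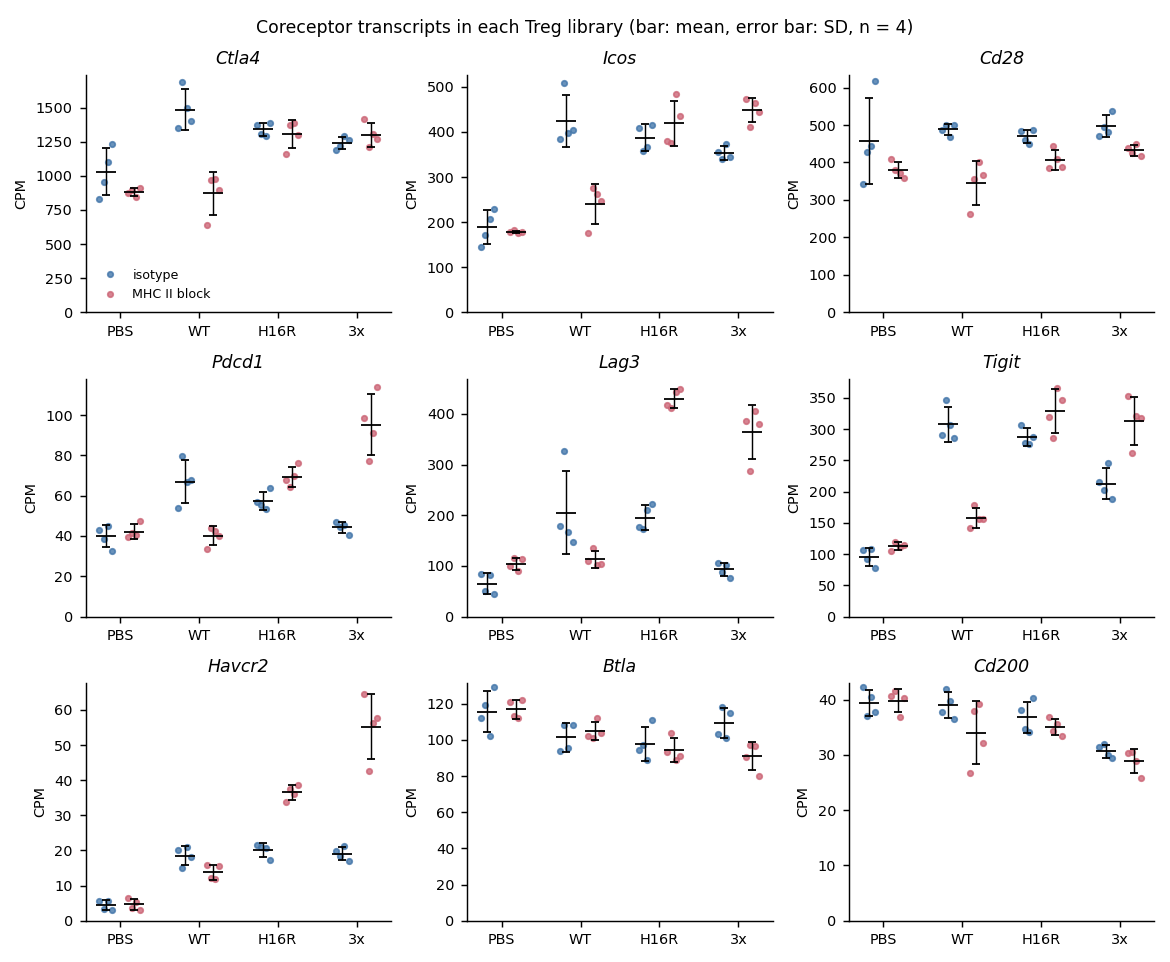
CPM (linear axis from 0) of each member in each of the 32 Treg libraries, by treatment and antibody arm; points are libraries, bars the mean and error bars the SD of 4 libraries. With isotype antibody the blue points of Icos, Tigit, Lag3 and Havcr2 rise under all 3 IL-2 molecules. With MHC II block the WT points of Lag3, Pdcd1 and Ctla4 sit at the level of PBS, while the H16R and 3x points of Havcr2 lie above all others and those of Lag3, at 287 to 449 CPM, overlap only with WT isotype replicate 2 at 327 CPM.

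The first question was which coreceptors answer to IL-2 when MHC class II is free. With isotype antibody WT IL-2 raised 6 of the 9 members, Ctla4, Icos, Pdcd1, Lag3, Tigit and Havcr2, and lowered Btla. The same 6 rose and Btla fell with H16R, while 3x raised 5, without Pdcd1, and lowered Cd200. Background was high, since IL-2 changed much of the transcriptome: 26% of the 12392 tested protein-coding genes rose and 26.2% fell with WT, 31.4% and 32.8% with H16R, and 31.3% and 32.3% with 3x (adjusted p under 0.1, edgeR quasi-likelihood test). The median log2 fold change of the 9 members was 0.74 with WT, 0.52 with H16R and 0.28 with 3x, against -0.01 over all genes in each. The 3 comparisons share the 4 isotype PBS libraries as controls.

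Among the costimulatory receptors Icos rose and Cd28 was not called. Icos held 145, 172, 208 and 230 CPM in the isotype PBS libraries, 385, 509, 398 and 404 with WT, 409, 357, 366 and 416 with H16R, and 355, 339, 374 and 345 with 3x. Every IL-2 library was above every PBS library. The log2 fold change was 1.17 ± 0.11 (SE) with WT (adjusted p = 3.85e-09), 1.04 ± 0.11 with H16R and 0.92 ± 0.11 with 3x. Cd28, the main costimulatory receptor, held 343, 427, 444 and 617 CPM in the same PBS libraries and 450 to 537 CPM in the 12 isotype IL-2 libraries. Its log2 fold changes of 0.10 ± 0.11, 0.05 ± 0.11 and 0.13 ± 0.11 with WT, H16R and 3x missed the threshold (adjusted p = 0.478, 0.727 and 0.296), and PBS replicate 4 at 617 CPM lay above every IL-2 library. Without that library Cd28 was called higher with all 3 molecules, by 0.28, 0.22 and 0.31 on the log2 scale (adjusted p = 0.0123, 0.0335 and 0.00406).

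Of the inhibitory relatives of CD28, Ctla4 rose modestly from a high level. It held 834, 956, 1100 and 1230 CPM in isotype PBS libraries, 1350, 1690, 1500 and 1400 with WT, 1370, 1310, 1290 and 1390 with H16R, and 1190, 1220, 1290 and 1260 with 3x. WT and H16R libraries did not overlap with PBS, and the 3x libraries did. The log2 fold change was 0.53 ± 0.10 with WT (adjusted p = 7.11e-05), 0.39 ± 0.10 with H16R (adjusted p = 0.00125) and 0.28 ± 0.10 with 3x (adjusted p = 0.015). Pdcd1, which encodes PD-1, held 43.1, 38.5, 45.2 and 32.7 CPM with PBS, 53.7, 79.8, 66.9 and 67.6 with WT, 57, 55.6, 53.4 and 63.9 with H16R, and 46.9, 44.5, 45.6 and 40.5 with 3x. The WT and H16R libraries lay above all PBS libraries, and the 3x libraries overlapped with them. Its log2 fold change was 0.74 ± 0.11 with WT (adjusted p = 5.19e-06), 0.52 ± 0.11 with H16R (adjusted p = 0.000238) and 0.16 ± 0.11 with 3x (adjusted p = 0.242).

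Btla, whose product binds the herpesvirus entry mediator, moved little. It held 102 to 129 CPM with PBS, 93.6 to 108 with WT, 89.1 to 111 with H16R and 101 to 118 with 3x, overlapping throughout, and the log2 fold changes were -0.19 ± 0.08, -0.23 ± 0.08 and -0.07 ± 0.08 (adjusted p = 0.0456, 0.00947 and 0.463). The call with WT was lost without isotype PBS replicate 2 or 4 or without WT replicate 1 or 3a (log2 fold changes from -0.17 to -0.13).

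Tigit, whose product competes with the activating CD226 for CD155, was the member with the strongest statistical support. It held 107, 91.4, 108 and 77.7 CPM with PBS, 291, 346, 307 and 285 with WT, 307, 277, 276 and 288 with H16R, and 215, 203, 245 and 188 with 3x. No IL-2 library overlapped with PBS, and the 3x libraries lay below all WT and H16R libraries. The log2 fold change was 1.68 ± 0.10 with WT (adjusted p = 5.59e-13), 1.58 ± 0.10 with H16R and 1.15 ± 0.10 with 3x (adjusted p = 2.19e-10).

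Lag3, the MHC class II binding inhibitor, held 83.8, 50.2, 82 and 43.8 CPM with PBS, 179, 327, 167 and 147 with WT, 176, 172, 210 and 222 with H16R, and 106, 88.9, 102 and 76.6 with 3x. The WT and H16R libraries stood clear of PBS, while those of 3x overlapped with it. Its log2 fold change was 1.64 ± 0.20 with WT (adjusted p = 1.99e-07), 1.58 ± 0.20 with H16R and 0.52 ± 0.20 with 3x (adjusted p = 0.0274), and the last call was lost without isotype PBS replicate 2 (0.41, adjusted p = 0.1) or 4 (0.38, adjusted p = 0.111). Havcr2, which encodes TIM-3, showed the largest relative rise from the lowest level. It went from 5.59, 3.34, 5.67 and 3.01 CPM with PBS to 20.1, 15, 20.9 and 18.2 with WT, 21.5, 21, 20.7 and 17.3 with H16R, and 19.8, 18.3, 21.2 and 16.9 with 3x. All IL-2 libraries were above all PBS libraries, by log2 fold changes of 2.03 ± 0.18, 2.15 ± 0.18 and 2.08 ± 0.18, that is 4.07-fold, 4.43-fold and 4.21-fold. Cd200 held 37 to 42.2 CPM with PBS, 36.5 to 41.9 with WT and 34.2 to 40.2 with H16R, and at 29.5 to 31.9 CPM with 3x it lay below PBS without overlap (log2 fold change -0.35 ± 0.08, adjusted p = 0.000475).

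Markers of other cells moved with these comparisons. With isotype antibody all 7 tested B cell markers were lower under each molecule, with a median log2 fold change of -2.73 with WT, -4.31 with H16R and -3.96 with 3x, of 8 myeloid markers 4, 7 and 7 were lower and 0, 1 and 1 higher, and of 4 NK markers 2, 4 and 3 were lower. Their part in the results was not tested. The summed level of the 4 markers of follicular helper cells, which carry PD-1 and ICOS, was 152 to 161 CPM with PBS, 157 to 190 with WT, 161 to 180 with H16R and 116 to 128 with 3x. Without the pair of libraries rich in B cell markers, every call of the preceding paragraphs stood.

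**Figure D2:**
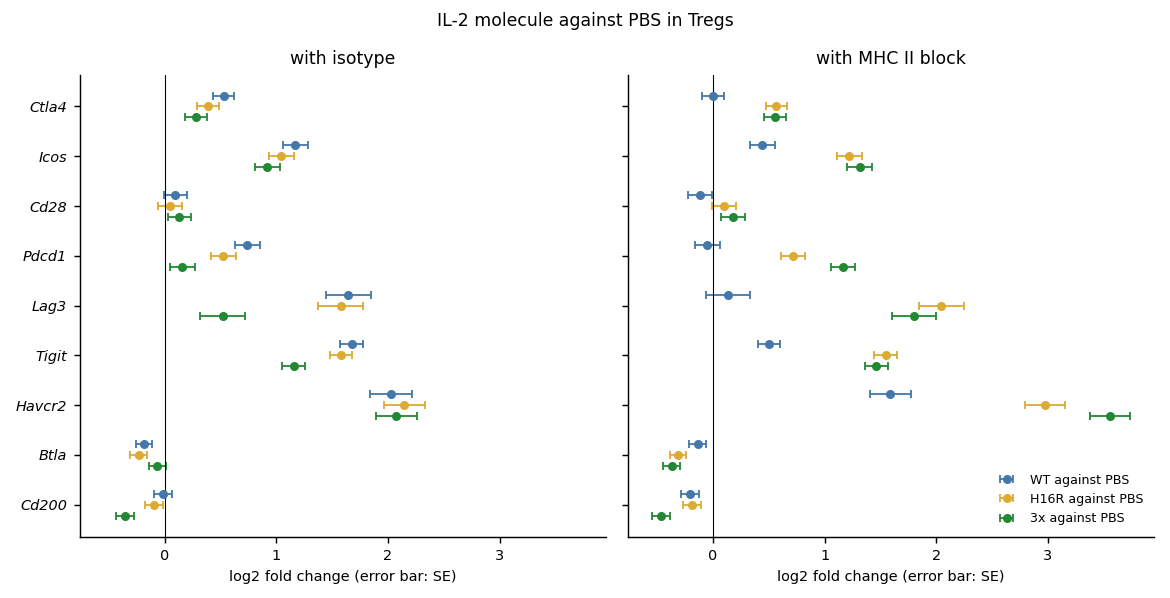
Log2 fold change of each member with each IL-2 molecule against PBS in Tregs, with isotype antibody (left) and with MHC II block (right); points are estimates of the edgeR fit over 32 libraries and error bars their SE. With isotype the 3 molecules sit close for Icos and Havcr2, while with block the WT points of Ctla4, Pdcd1 and Lag3 lie between -0.05 and 0.13 and the H16R and 3x points of Havcr2 lie at 2.97 and 3.56.

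With MHC class II blocked, the same doses gave a split picture. WT raised only Icos, Tigit and Havcr2 and lowered Cd200, whereas H16R and 3x each raised the same 6 members, Ctla4, Icos, Pdcd1, Lag3, Tigit and Havcr2, and lowered Btla and Cd200. Of all tested genes 21.9% rose and 13.7% fell with WT, 32.7% and 33.8% with H16R, and 34.7% and 38.3% with 3x, and the 4 PBS libraries with block served all 3 comparisons. Icos held 178, 182, 177 and 179 CPM with PBS, 177, 276, 263 and 246 with WT, 380, 376, 483 and 436 with H16R, and 473, 412, 463 and 445 with 3x. Its log2 fold change was 0.44 ± 0.11 with WT (adjusted p = 0.00408), 1.22 ± 0.11 with H16R and 1.31 ± 0.11 with 3x. MHC II block WT replicate 1, rich in B cell and myeloid markers, was the lowest WT library for Icos, Ctla4, Cd28, Pdcd1, Tigit and Cd200. In the comparison of WT with PBS under block 5 of 7 B cell markers and 7 of 8 myeloid markers were higher, and their part in the result was not tested.

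The group means of Lag3, Havcr2, Pdcd1 and Tigit were highest where a mutein met the block, and that of Icos where 3x met it. For all but Havcr2 some of these libraries overlapped with WT isotype. Lag3 held 99.3, 115, 89.7 and 113 CPM with PBS, 110, 136, 102 and 103 with WT, 417, 411, 444 and 449 with H16R, and 386, 287, 405 and 380 with 3x. The WT libraries overlapped with PBS, and both muteins stood far above. The log2 fold change was 0.13 ± 0.19 with WT (adjusted p = 0.646), 2.05 ± 0.20 with H16R (adjusted p = 1.39e-09) and 1.80 ± 0.20 with 3x. Havcr2 held 6.43, 3.75, 5.27 and 3.19 CPM with PBS, 15.9, 12.2, 11.8 and 15.5 with WT, 33.8, 37.6, 36.2 and 38.5 with H16R, and 64.6, 42.6, 56.2 and 57.6 with 3x. None of these groups overlapped, and the rise over PBS was 3.01-fold with WT, 7.83-fold with H16R and 11.8-fold with 3x (log2 fold changes 1.59 ± 0.18, 2.97 ± 0.18 and 3.56 ± 0.18). Markers of CD8 T cells and NK cells, cells that can carry LAG-3 and TIM-3, moved with the muteins here: both CD8 markers were higher with H16R and with 3x (median log2 fold changes 1.19 and 1.83), and of 4 NK markers 2 and 3 were higher and 1 was lower (1.51 and 1.48). The CD8 markers summed to 7.29 to 8.97 CPM with PBS, 10.3 to 15.6 with H16R and 13.5 to 36.7 with 3x, and the NK markers to 16.3 to 23.7, 15.9 to 27.9 and 17.4 to 23.3 CPM. Both were also higher with WT (2 of 2 and 3 of 4). The 8 myeloid markers summed to 72 to 101 CPM with PBS, 105 to 149 with H16R and 124 to 145 with 3x, without overlap with PBS, although 1 of 8 was called higher and 1 lower with each mutein; Itgam went from 2.77 to 4.16 CPM with PBS to 20 to 32.8 with H16R and 33.5 to 46.9 with 3x, while Csf1r held 2.11 to 3.96, 1.64 to 5.66 and 1.51 to 4.21 CPM. The part of these cells in the results was not tested.

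Pdcd1 rose with the muteins and not with WT. It held 39.4, 41.7, 40.3 and 47.4 CPM with PBS, 33.7, 44.1, 42.7 and 39.9 with WT, 67.8, 64.2, 69.6 and 76.2 with H16R, and 98.8, 77.3, 91.2 and 114 with 3x. WT libraries overlapped with PBS, H16R stood above both, and 3x above H16R. The log2 fold change was -0.05 ± 0.11 with WT (adjusted p = 0.752), 0.72 ± 0.11 with H16R (adjusted p = 2.96e-06) and 1.16 ± 0.11 with 3x (adjusted p = 3.49e-10). The follicular helper markers summed to 144 to 149 CPM with PBS, 128 to 145 with WT, 163 to 181 with H16R and 145 to 177 with 3x, and of them Il21 held 3.47 to 4.58, 2.6 to 5.2, 11.4 to 15.4 and 24.4 to 39.3 CPM. In the same order Sh2d1a held 50 to 53.4, 46.7 to 66, 78.2 to 88 and 65.9 to 79.6 CPM. Cxcr5 held 49.3 to 51.4, 36.9 to 45.3, 37.1 to 46 and 26.9 to 39 CPM. Bcl6 held 39.8 to 42.6, 30.2 to 34.2, 28.5 to 33.8 and 23.3 to 27.4 CPM. With each mutein 2 of these 4 markers were called higher and 2 lower. Their part in the levels of Pdcd1 and Icos was not tested. Tigit held 105 to 120 CPM with PBS, 141 to 179 with WT, 285 to 366 with H16R and 261 to 352 with 3x, with log2 fold changes of 0.50 ± 0.10, 1.55 ± 0.10 and 1.46 ± 0.10. Ctla4 held 871, 894, 847 and 911 CPM with PBS, 642, 967, 979 and 899 with WT, 1160, 1370, 1390 and 1300 with H16R, and 1420, 1210, 1310 and 1270 with 3x. Its difference was 0.00 ± 0.10 with WT, with an interval of -0.19 to 0.19, and 0.57 ± 0.10 and 0.56 ± 0.10 with H16R and 3x (adjusted p = 1.38e-05 and 1.21e-05). Cd28 was not called with any of the 3 (0.18 ± 0.11 with 3x, adjusted p = 0.134), but without the pair of libraries that stood apart it was called with 3x (0.19, adjusted p = 0.0235). Btla held 112 to 122 CPM with PBS, 88.8 to 104 with H16R and 80.1 to 97.1 with 3x, both below PBS without overlap, and fell by 0.31 ± 0.08 and 0.37 ± 0.08 on the log2 scale. Cd200 held 36.9 to 41.5 CPM with PBS and 25.9 to 30.6 with 3x, and fell by 0.47 ± 0.08. Its smaller falls of 0.20 ± 0.08 with WT and 0.19 ± 0.08 with H16R were not called without the WT block library rich in myeloid markers (-0.12, adjusted p = 0.244, or 0.217 without the pair that stood apart), PBS block replicate 1, 2 or 4 or WT block replicate 4 (-0.20 to -0.18), and without H16R block replicate 4 or PBS block replicate 2 (-0.16 and -0.17).

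The next question was what blocking MHC class II does to Tregs under each treatment. In PBS mice only Lag3 was called, higher with block by 0.66 ± 0.20 on the log2 scale (adjusted p = 0.0352), where 6% of all genes rose and 8.13% fell. This call was lost without isotype PBS replicate 2 (0.56, adjusted p = 0.103) or 4 (0.52, adjusted p = 0.11). All 7 tested B cell markers, 3 of 4 NK markers and 1 of 8 myeloid markers were lower with block in this comparison (medians -1.89, -0.76 and -0.60). Their part in the result was not tested. Without the pair of libraries that stood apart, Ctla4 and Cd28 were called lower with block, by 0.31 and 0.38 (adjusted p = 0.00561 and 0.00238), and Tigit higher by 0.29 (adjusted p = 0.0694).

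In mice given WT IL-2 the block lowered 7 of the 9 members, against 15.3% of all genes lower and 18.2% higher. The fall was 0.95 ± 0.10 on the log2 scale for Tigit (adjusted p = 7.18e-08), 0.85 ± 0.19 for Lag3, 0.80 ± 0.11 for Icos, 0.75 ± 0.10 for Ctla4, 0.72 ± 0.11 for Pdcd1, 0.48 ± 0.11 for Cd28 and 0.41 ± 0.16 for Havcr2 (adjusted p = 0.0581). For Tigit, Icos, Ctla4, Pdcd1, Lag3 and Cd28 no library with block reached the lowest isotype library. The Havcr2 call was lost without WT isotype replicate 1 or 3a or WT block replicate 2 or 3 (log2 fold changes from -0.37 to -0.33). In the same comparison all 7 tested B cell markers, all 8 myeloid markers and all 4 NK markers were higher with block, and Foxp3 was lower by 0.33 ± 0.06. The follicular helper markers summed to 128 to 145 CPM with block against 157 to 190 with isotype, without overlap, and 2 of 4 were called lower (median log2 fold change -0.34). The part of other cells was not tested. Without isotype PBS replicate 1 and MHC II block WT replicate 1 together, the 7 falls were still called. Cd200 lay at -0.18 ± 0.08 (adjusted p = 0.101) and was called in 10 of the 32 fits that left out 1 library and by DESeq2 (adjusted p = 0.0738).

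With the muteins the block had the opposite sign for several members. Under H16R it raised Lag3 by 1.13 ± 0.19 (adjusted p = 0.000203), Havcr2 by 0.85 ± 0.16 (adjusted p = 0.000421) and Pdcd1 by 0.27 ± 0.11 (adjusted p = 0.0765) and lowered none, where 15.4% of all genes rose and 15.2% fell. The Pdcd1 call was lost without any of 6 libraries of the 2 groups, H16R isotype replicates 1, 2 and 3 and H16R block replicates 1, 3 and 4 (0.22 to 0.28 on the log2 scale). Without the pair of libraries that stood apart Cd28 was called lower with block under H16R, by 0.21 (adjusted p = 0.0377). Under 3x it raised Lag3 by 1.94 ± 0.20, Havcr2 by 1.51 ± 0.16, Pdcd1 by 1.08 ± 0.11, Tigit by 0.54 ± 0.10 and Icos by 0.32 ± 0.11, and lowered Btla by 0.28 ± 0.08 and Cd28 by 0.22 ± 0.11 (adjusted p = 0.0856), where 27.2% rose and 26.9% fell. That is 3.85-fold for Lag3, whose 4 isotype libraries at 76.6 to 106 CPM lay far below the 4 with block at 287 to 405 CPM. The Cd28 call was lost without any of 7 of the 8 libraries of these groups (adjusted p from 0.104 to 0.229), 3x isotype replicate 1 being the exception. Ctla4 under 3x differed between the arms by 0.05 ± 0.10, with an interval of -0.14 to 0.24. Myeloid markers moved here too: 4 of 8 were higher with block under 3x, with a summed level of 124 to 145 CPM against 68.7 to 78.4 CPM, and 5 of 8 under H16R, with 105 to 149 against 67.8 to 71.6 CPM. Markers of other lymphocytes moved as well. Under 3x the follicular helper markers summed to 145 to 177 CPM with block against 116 to 128 CPM, the NK markers to 17.4 to 23.3 against 8.84 to 14.8, the CD8 markers to 13.5 to 36.7 against 9.69 to 11.4, and the B cell markers to 50.4 to 118 against 24.6 to 33.2 CPM, all without overlap. Under H16R the NK markers (15.9 to 27.9 against 6.93 to 10.7 CPM) and B cell markers (43.1 to 77.7 against 26.8 to 35.3) did not overlap, while the follicular helper markers (163 to 181 against 161 to 180) and CD8 markers (10.3 to 15.6 against 8.9 to 12.6) did. The part of these cells in the rise of Lag3, Havcr2, Pdcd1, Tigit and Icos was not tested.

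**Figure D3:**
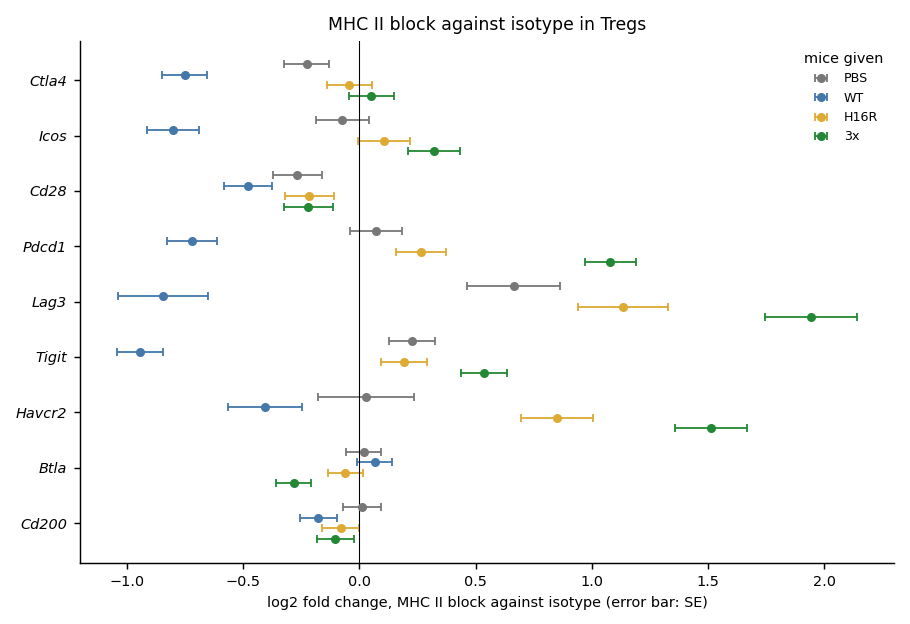
Log2 fold change of each member with MHC II block against isotype antibody in Tregs, by treatment of the mice; points are estimates of the edgeR fit and error bars their SE. The WT points of the 7 members called lower, and of Cd200, which was not called, lie left of 0. The 3x points of Lag3, Havcr2 and Pdcd1 lie at 1.94, 1.51 and 1.08.

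The difference between arms was tested directly. The response to WT against PBS was smaller with block for Lag3 by 1.51 ± 0.28 on the log2 scale (adjusted p = 0.000562), Tigit by 1.17 ± 0.14 (adjusted p = 4.78e-06), Pdcd1 by 0.79 ± 0.16, Icos by 0.73 ± 0.16 and Ctla4 by 0.53 ± 0.14 (adjusted p = 0.00885), 5 of 9 members where 7.98% of genes were lower and 11.7% higher. The response to 3x was larger with block for Havcr2 by 1.48 ± 0.26, Lag3 by 1.28 ± 0.28, Pdcd1 by 1.01 ± 0.16, Icos by 0.39 ± 0.16 and Tigit by 0.31 ± 0.14, and for Btla, which fell further with block, the difference was -0.30 ± 0.11, where 20.3% of genes were higher and 18.7% lower. The Tigit call (adjusted p = 0.0927) was lost in 15 of the 32 fits that left out 1 library and without the pair that stood apart (0.25, adjusted p = 0.179), while Ctla4 was then called (0.37, adjusted p = 0.00675). The Icos call (adjusted p = 0.0599) was lost without 3x block replicate 1 or 3, 3x isotype replicate 2 or isotype PBS replicate 3 or 4 (0.29 to 0.37). The response to H16R differed between arms in Havcr2 alone, by 0.82 ± 0.26 (adjusted p = 0.038), where 10.6% of genes were higher and 8.47% lower, and the call was lost without isotype PBS replicate 1 (0.66, adjusted p = 0.133) or 3 (0.70, adjusted p = 0.1). Without the pair that stood apart Havcr2 was not called either (0.67, adjusted p = 0.116), and Ctla4 was (0.27, adjusted p = 0.0721). In these differences between arms for WT, H16R and 3x, all 7 tested B cell markers (medians 4.19, 3.44 and 3.55), 8, 5 and 6 of 8 myeloid markers (3.28, 2.51 and 1.77) and 4, 4 and 3 of 4 NK markers (2.42, 2.82 and 2.40) were higher with block. Of 4 follicular helper markers 1, 1 and 0 were lower and 0, 0 and 2 higher, and the part of these cells was not tested.

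The effect of the block under a mutein differed from that under WT in 6 members for H16R, all higher, where 12.6% of genes were higher and 10.9% lower. These were Lag3 by 1.98 ± 0.28, Havcr2 by 1.26 ± 0.22, Tigit by 1.14 ± 0.14, Pdcd1 by 0.99 ± 0.15, Icos by 0.91 ± 0.16 and Ctla4 by 0.71 ± 0.14. For 3x the same 6 were higher, led by Lag3 at 2.79 ± 0.28 and Havcr2 at 1.92 ± 0.22, and Btla was lower by 0.35 ± 0.11, where 20.7% of genes were higher and 23% lower. Cd28 and Cd200 differed in neither (Cd28 0.26 ± 0.15 for H16R and 0.26 ± 0.15 for 3x), with an interval for Cd28 of -0.03 to 0.55 in each. Beside them 2 and 3 of 4 follicular helper markers were higher for H16R and 3x, no B cell, NK or myeloid marker was higher, and for 3x 2 of 8 myeloid markers and 1 of 4 NK markers were lower. Their part in the results was not tested.

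The 3 molecules, which differ by the substituted amino acids, were also compared with each other at the same dose and time. With isotype antibody no member differed between H16R and WT at the threshold, where 8.87% of genes were higher and 9.76% lower; the log2 difference was -0.07 ± 0.19 for Lag3, with an interval of -0.44 to 0.31, and -0.10 ± 0.10 for Tigit, with an interval of -0.29 to 0.10. At an unadjusted p under 0.05 the count was also 0 of 9, and 0 of 9 were called by DESeq2 or by limma. Pdcd1 came nearest, at -0.22 ± 0.11 (unadjusted, edgeR), and was called without WT isotype replicate 1 (-0.31, adjusted p = 0.0541). The 3x mutein gave less than WT for Lag3 (-1.13 ± 0.20), Pdcd1 (-0.58 ± 0.11), Tigit (-0.52 ± 0.10), Cd200 (-0.34 ± 0.08), Icos (-0.25 ± 0.11) and Ctla4 (-0.25 ± 0.10), where 16.9% of genes were higher and 17.7% lower. The calls of Icos and Ctla4 were lost without WT isotype replicate 2 (-0.15 and -0.18, adjusted p = 0.366 and 0.219), the library with the highest value of each; that of Ctla4 was also lost without 3x isotype replicate 1 (-0.22), and that of Icos in 13 of the 32 fits that left out 1 library. Havcr2 did not differ at the threshold (0.05 ± 0.16, interval -0.26 to 0.36). Of the 4 follicular helper markers 3 were lower with 3x than with WT (median log2 fold change -0.70) and 4 lower than with H16R (-0.54), and their part in the results was not tested. Against H16R, 3x was lower for Lag3 (-1.06 ± 0.20), Tigit (-0.43 ± 0.10), Pdcd1 (-0.37 ± 0.11) and Cd200 (-0.26 ± 0.08), where 5.76% of genes were higher and 5.77% lower. The calls of Pdcd1 and Cd200 were lost without 3x isotype replicate 4 (-0.32 and -0.24) or H16R isotype replicate 4 (-0.31 and -0.21), and that of Cd200 also without replicate 1 of either group (-0.27 and -0.24).

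With MHC II block the order of 3x and WT turned for Lag3, Pdcd1, Tigit, Icos and Ctla4. H16R gave more than WT for 7 members, led by Lag3 at 1.91 ± 0.20, Havcr2 at 1.38 ± 0.16 and Tigit at 1.04 ± 0.10, and less for Btla, where 25.5% of genes were higher and 32% lower. The 3x mutein gave more than WT for the same 7, led by Havcr2 at 1.97 ± 0.16, Lag3 at 1.66 ± 0.20 and Pdcd1 at 1.22 ± 0.11, and less for Btla and Cd200, where 30% were higher and 38.7% lower. Cd28 was among the 7 by only 0.21 ± 0.11 and 0.29 ± 0.11, and without MHC II block WT replicate 1 it was no longer called (0.11 and 0.19, adjusted p = 0.378 and 0.102). Without the pair that stood apart the H16R call of Cd28 was lost (0.12, adjusted p = 0.216) and that with 3x was kept. The H16R call of Cd28 was also lost without H16R block replicate 2 or 3, WT block replicate 2 or PBS block replicate 2 (0.16 to 0.22), and the H16R call of Btla, at -0.17 ± 0.08, without H16R block replicate 3 or 4 or WT block replicate 3 (-0.15). All 7 tested B cell markers and 7 of 8 myeloid markers were lower with either mutein than with WT here, and 1 myeloid marker was higher with 3x. Of 4 NK markers 2 were lower with H16R and 3 with 3x, and of 2 CD8 markers 1 was lower with H16R. Of 4 follicular helper markers 2 were higher with H16R, and 2 were higher and 2 lower with 3x. The part of all these cells in the results was not tested. Between the muteins 3x exceeded H16R for Havcr2 (0.59 ± 0.15, adjusted p = 0.00711) and Pdcd1 (0.45 ± 0.11, adjusted p = 0.00426) and was lower for Cd200 (-0.28 ± 0.08), where 12.7% of genes were higher and 12.5% lower. Of the 4 follicular helper markers 1 was higher and 3 were lower with 3x (median log2 fold change -0.27). No B cell, myeloid or NK marker was called between the muteins, and the part of other cells was not tested. Lag3 did not differ at the threshold, at -0.25 ± 0.19 with an interval of -0.62 to 0.13.

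CTLA-4 and CD28 compete for the same ligands, so the ratio of Ctla4 to Cd28 FPKM was compared in 10 contrasts. The ratio was 5.4 ± 0.557 (SD, n = 4) in isotype PBS Tregs, 7.12 ± 0.679 with WT, 6.65 ± 0.0385 with H16R and 5.82 ± 0.31 with 3x. With block it was 5.55 ± 0.396 with PBS, 5.91 ± 0.334 with WT, 7.49 ± 0.421 with H16R and 6.98 ± 0.37 with 3x. WT and H16R with isotype, and H16R and 3x with block, lay above PBS without overlap, by 1.32-fold, 1.24-fold, 1.35-fold and 1.26-fold. The block lowered the ratio under WT (0.832-fold) and raised it under H16R (1.12-fold) and 3x (1.2-fold), again without overlap. Each of these 7 comparisons had p = 0.0286 in a two-sided exact permutation test, the smallest that 4 against 4 libraries can give (adjusted p = 0.0408 over 10 comparisons). WT against PBS with isotype and the block under WT use replicates 3a and 3b, so their p holds only if these are 2 mice. Without 3a or 3b the log2 difference was 0.373 or 0.435 for the former and -0.239 or -0.301 for the latter. The remaining contrasts, 3x against PBS with isotype, WT against PBS with block and block against isotype in PBS mice, overlapped (p = 0.229, 0.257 and 0.714, exact test). In Tcons the group means of the ratio ran from 0.984 to 2.

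**Figure D4:**
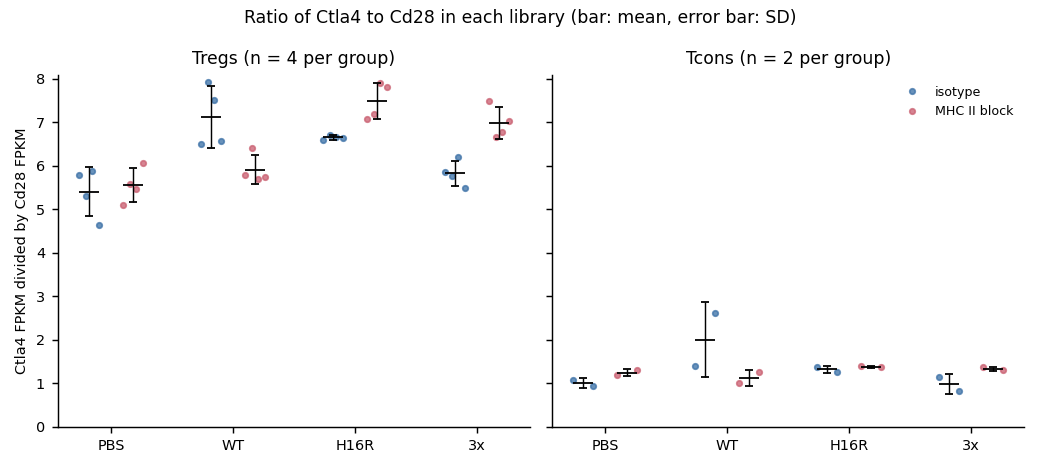
Ratio of Ctla4 FPKM to Cd28 FPKM in each Treg library (left) and Tcon library (right), linear axis from 0; bars are means and error bars the SD. All Treg libraries lie above all Tcon libraries, and with block the H16R and 3x points, at 6.66 and above, lie over those of PBS and WT, at 6.41 and below.

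Tregs were next compared with Tcons of the same mouse, with the mouse as a block. Over all 16 mice 8 of the 9 members were higher in Tregs and none lower, where 38.2% of the 12844 tested genes were higher and 37.7% lower. Ctla4 was higher by 2.64 ± 0.13 on the log2 scale, Tigit by 2.25 ± 0.17, Lag3 by 1.48 ± 0.21, Havcr2 by 1.48 ± 0.26, Icos by 1.14 ± 0.13, Pdcd1 by 1.05 ± 0.19, Cd200 by 1.03 ± 0.10 and Cd28 by 0.30 ± 0.09 (adjusted p = 0.0058). Markers of other cells differed too: all 8 B cell, 8 myeloid, 4 NK and 2 CD8 markers were lower in Tregs (median log2 fold changes -1.79, -1.69, -2.34 and -1.03), and of 4 follicular helper markers 3 were higher and 1 lower (0.46). Their part in the results was not tested. Btla, at 80.1 to 129 CPM in Tregs and 69.2 to 154 CPM in Tcons, did not differ at the threshold (0.05 ± 0.07, interval -0.09 to 0.18). In the 4 PBS mice the picture was narrower: Ctla4 (2.13 ± 0.19), Tigit (1.31 ± 0.18), Cd200 (0.48 ± 0.14) and Icos (0.40 ± 0.16) were higher in Tregs and Btla lower (-0.35 ± 0.09). The Icos call was lost with no mouse block (adjusted p = 0.117) or without the mouse isotype PBS replicate 2 (0.31, adjusted p = 0.205) or MHC II block PBS replicate 2 (0.40, adjusted p = 0.106). Pdcd1 was at -0.04 ± 0.24 with an interval of -0.51 to 0.44, and Lag3 at 0.29 ± 0.22 with an interval of -0.14 to 0.73. Fits within a treatment took both arms together, with 2 mice of each arm, and the arm means went opposite ways in PBS mice. Mean Lag3 was 32.3 FPKM in isotype PBS Tregs against 18.8 in Tcons, and 52.4 against 64.6 with block. Mean Pdcd1 was 20.5 against 15.5 FPKM with isotype and 22 against 31.8 with block. A difference between arms was not tested here, and these pooled PBS mice are the baseline used below. Of all genes 24.5% were higher and 25.9% lower in Tregs of PBS mice. Within mice given WT, H16R and 3x, 9, 9 and 8 members were higher in Tregs and none lower, where 32%, 36.4% and 36.7% of genes were higher and 31.5%, 34.1% and 34.4% lower. Under WT 3 of the 9 calls rested on single mice: Havcr2 (0.92 ± 0.39) was lost without the mouse isotype WT replicate 1 or 2 (0.57 and 0.79), Cd28 (0.30 ± 0.12) without isotype WT replicate 1 or MHC II block WT replicate 1 or 2 (0.21 to 0.26), and Btla (0.25 ± 0.09) without MHC II block WT replicate 1 or 2 (0.10 and 0.21). The signed difference, Tregs minus Tcons, was higher than in PBS mice for 9 members under H16R and for 9 under 3x, and for 6 under WT, as it was for 21.8%, 24.3% and 7.26% of all genes, a count that also holds genes whose difference moved from below 0 towards it. Btla was such a gene: from -0.35 in PBS mice it came to 0.25 ± 0.09 with WT, 0.24 ± 0.09 with H16R and 0.04 ± 0.09 with 3x. For Pdcd1 the difference rose by 1.21 ± 0.35 with WT, 1.56 ± 0.35 with H16R and 1.49 ± 0.34 with 3x, and for Lag3 by 1.12 ± 0.31, 1.93 ± 0.31 and 1.61 ± 0.31. In the same differences from PBS mice 2, 4 and 2 of the 4 follicular helper markers were higher (medians 0.58, 0.91 and 0.43) and 0, 4 and 6 of 8 myeloid markers lower, and their part was not tested. Of the 6 calls under WT only that of Btla (0.60 ± 0.12) held without the mouse as a block and without each mouse in turn, the others (Icos, Pdcd1, Lag3, Tigit and Cd200) being at adjusted p = 0.154 to 0.193 with no block. Under H16R the Ctla4 call (0.70 ± 0.26) was lost with no block (adjusted p = 0.117) or without any of 5 mice (0.61 to 0.68), and the Havcr2 call (1.5 ± 0.59) without any of 4 (1.05 to 1.35). Under 3x the Havcr2 call (1.78 ± 0.60) was lost without the mouse isotype PBS replicate 1 (1.33, adjusted p = 0.125).

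**Figure D5:**
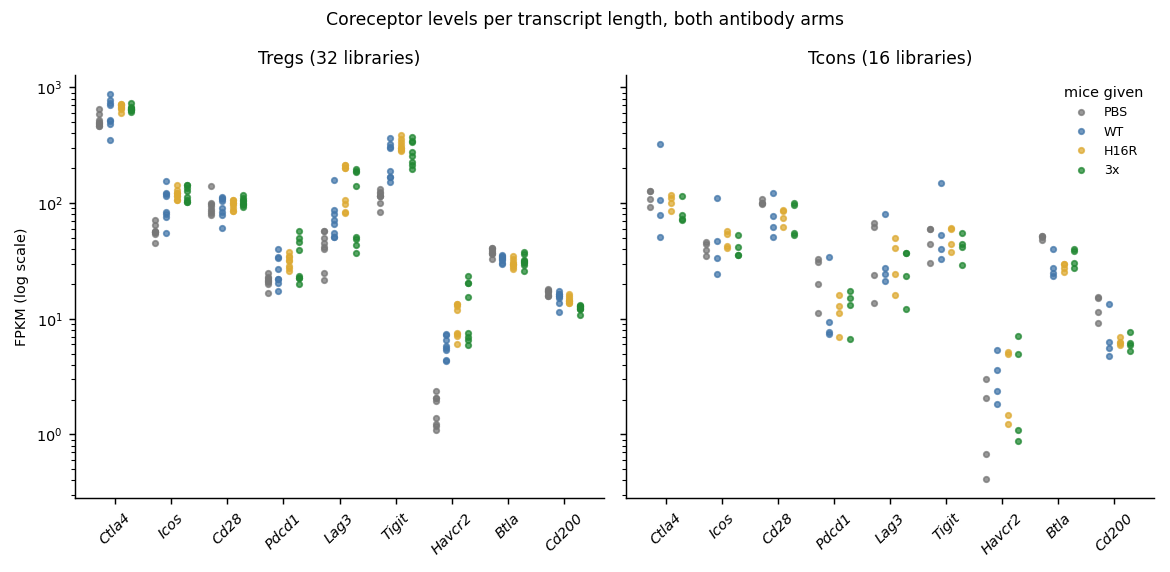
FPKM (log axis) of each member in the 32 Treg libraries (left) and the 16 Tcon libraries (right), colored by treatment, both antibody arms together. Ctla4 and Tigit stand higher in Tregs under every treatment, while Pdcd1 and Lag3 of PBS mice overlap between the cell types.

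In the Tcons themselves, with 2 libraries per group and both arms in an additive fit, 6 of 27 tests of a member with IL-2 against PBS were called, all lower, near the 22.7% of tests called over all genes, and 14 without isotype WT replicate 2. Btla fell by 0.77 ± 0.13, 0.84 ± 0.13 and 0.57 ± 0.13 on the log2 scale with WT, H16R and 3x, and Cd200 fell by 0.78 ± 0.28, 1.03 ± 0.28 and 1.06 ± 0.28. Btla held 149 and 150 CPM in isotype PBS Tcons and 154 and 142 with block, against 69.2 to 121 CPM with IL-2. Averaged over the treatments, Cd28 was lower with block by 0.51 ± 0.13 (adjusted p = 0.0249) and Btla by 0.24 ± 0.10. In this comparison 5 of 8 B cell markers were lower and 5 of 8 myeloid markers higher (median log2 fold changes -1.19 and 0.85). Of Foxp3, Il2ra, Ikzf2 and Il2rb 3 were lower (median -0.35), and the part of other cells was not tested. In PBS mice alone Cd28 was not lower, at 463 and 421 CPM with block against 432 and 424 with isotype, while with IL-2 it held 217 to 315 CPM with block against 332 to 530 with isotype. Of all 12526 genes tested 12.4%, 14.9% and 5.17% fell and 14.8%, 16.2% and 4.71% rose with WT, H16R and 3x, and with block 15.1% fell and 13.8% rose. The Cd200 calls with WT and 3x were lost without PBS block replicate 1 or 2 (-0.65 and -0.67 with WT, -0.93 and -0.95 with 3x), among others, the Btla call with 3x without block 3x replicate 2 (-0.50, adjusted p = 0.102), and the Btla call with block was lost in 10 of the 16 fits that left out 1 library. Tcon isotype WT replicate 2 stood apart, with 587 CPM of Ctla4 against 195 in replicate 1, 161 against 42.6 of Lag3 and 135 against 48.7 of Tigit, and with 183 against 98.2 CPM of Foxp3. Without it Ctla4 and Lag3 were called lower with WT, by 0.53 and 0.69 (adjusted p = 0.0794 and 0.095), instead of at 0.13 and 0.23, and Pdcd1 by 1.55. The additive fit averages over the arms, and a difference of the IL-2 response between arms was not tested in Tcons. In PBS Tcons Lag3 held 47.1 and 26.4 CPM with isotype and 132 and 124 with block, Pdcd1 37.3 and 21.1 against 62.1 and 59.1, and Ctla4 196 and 163 against 231 and 230 CPM. With block all 6 IL-2 libraries lay below both PBS libraries, at 47.7 to 97.1 CPM for Lag3, 14 to 32.2 for Pdcd1 and 91.2 to 183 for Ctla4. The follicular helper markers summed to 129 to 148 CPM in isotype PBS Tcons, 169 to 189 in block PBS and 82.9 to 97.3 in block IL-2 libraries, and their part in these levels was not tested. Havcr2 stood at 8.07 and 5.52 CPM in isotype PBS libraries and at 1.81 and 1.11 with block, but at 2.38 to 6.42 CPM in isotype and 9.88 to 18.3 CPM in block libraries of IL-2 mice. The 8 myeloid markers of these Tcon libraries summed to 224 to 236 CPM in isotype PBS, 90.2 to 101 in block PBS, 100 to 169 in isotype IL-2 and 246 to 724 in block IL-2 libraries, and their part in the Havcr2 level was not tested.

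Of the 15 listed ligands and counter-receptors of the members, 13 were tested in Tregs. With isotype antibody 5 rose and 4 fell with WT or with H16R, and 5 rose and 5 fell with 3x, with median log2 fold changes of 0.12, 0.07 and -0.02. Over all genes 26% rose and 26.2% fell with WT, 31.4% and 32.8% with H16R and 31.3% and 32.3% with 3x, shares near those of the ligands, at a median of -0.01. Cd80, a ligand of CD28 and CTLA-4, rose by 1.32 ± 0.08, 1.52 ± 0.08 and 1.63 ± 0.08 with WT, H16R and 3x. Lgals3, which encodes galectin-3, rose by 1.25 ± 0.21, 1.82 ± 0.21 and 1.97 ± 0.21, and Cd200r1, the receptor of CD200, by 0.98 ± 0.09, 1.29 ± 0.09 and 1.47 ± 0.09. Ceacam1, at a mean of 1.97 CPM, fell by 1.52 ± 0.51, 1.85 ± 0.53 and 1.45 ± 0.51. It was lower in Tregs than in Tcons, by 1.62 ± 0.18, and rose with WT under block, by 1.52 ± 0.50 (adjusted p = 0.0234), as did B cell and myeloid markers, whose part in the result was not tested. The WT libraries with block spread from 1.68 to 12.8 CPM of Ceacam1 and overlapped with PBS at 1.16 to 2.2 CPM. This test was not repeated without the pair of libraries that stood apart. With block Lgals3 rose by 1.22 ± 0.21, 2.88 ± 0.21 and 3.84 ± 0.21.

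All 20 listed signal transducers of the members were tested, and with isotype 11 rose and 4 fell with WT, 13 and 4 with H16R and 10 and 4 with 3x, against the same shares of all genes (26% to 31.4% higher and 26.2% to 32.8% lower). Their median log2 fold changes were 0.13, 0.21 and 0.13. The changes were small: Prkcq, the kinase that relays the CD28 signal, rose by 0.15 ± 0.06, 0.52 ± 0.06 and 0.48 ± 0.06, and Dok1, an adaptor that restrains receptor signals, by 0.48 ± 0.07, 0.48 ± 0.07 and 0.28 ± 0.07. Dok2 rose by 0.32 ± 0.06, 0.47 ± 0.06 and 0.45 ± 0.06. Trat1, an adaptor that aids the transport of CTLA-4 to the surface, rose by 0.25 ± 0.12, 0.52 ± 0.12 and 0.38 ± 0.12.

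Of 22 further coreceptors 20 were tested, and 10 rose and 6 fell with WT, 11 and 6 with H16R, and 11 and 5 with 3x, where 26% to 31.4% of all genes rose and 26.2% to 32.8% fell. The median log2 fold changes were 0.15, 0.14 and 0.14. Klrg1, an inhibitory receptor of highly activated T cells, rose by 1.77 ± 0.18, 2.04 ± 0.18 and 2.22 ± 0.18 with isotype, and the block lowered it under WT, H16R and 3x by 0.67 ± 0.17, 0.78 ± 0.17 and 0.80 ± 0.17. Cd83 fell by 0.66 ± 0.16, 1.71 ± 0.16 and 1.82 ± 0.16 with isotype, and block lowered it in PBS mice too, by 1.13 ± 0.16. Cd300a and Cd244a, at means of 2.99 and 5.15 CPM and both lower in Tregs than in Tcons, by 2.38 ± 0.25 and 1.52 ± 0.16, fell with all 3 molecules with isotype, Cd300a by 2.32 ± 0.57, 3.67 ± 0.64 and 2.75 ± 0.58 and Cd244a by 0.99 ± 0.21, 1.72 ± 0.22 and 1.34 ± 0.22. With block and WT both rose, by 2.17 ± 0.53 and 0.95 ± 0.21, as did B cell and myeloid markers, whose part in the result was not tested. Cd300a spread from 2.32 to 31.3 CPM in these WT libraries and overlapped with PBS at 1.47 to 3.14 CPM. Cd244a held 6.05 to 16 CPM against 4.43 to 5.27 CPM. Neither test was repeated without the pair of libraries that stood apart.

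Genes whose group means of log2 CPM followed those of a member most closely over the 8 Treg groups are given for 8 of the members, as a description over 8 points. Lamp2 (Pearson r = 0.996) and Glipr1 (0.995) were nearest to Havcr2, Scly (0.992) and Pla2g16 (0.992) to Tigit, and Igtp (0.989) and Matn2 (0.987) to Lag3. Eea1 (0.988) and Cnpy4 (0.972) were nearest to Pdcd1, Fbxw11 (0.983) and Hif1a (0.976) to Ctla4, Dcakd (0.987) and Sh3d21 (0.978) to Cd200, and Abhd11 (0.983) and Bclaf1 (0.981) to Btla. Cd28 had the least close neighbours, Rngtt (0.957) and Gm16286 (0.947).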

How the data were processed

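Tregs and Tcons of mouse spleen were profiled by stranded polyA RNA-seq. With the Omicsoft aligner OSA the authors placed the reads on the mouse genome B38 (GRCm38), and they deposited expected counts per gene from RSEM and FPKM values, which divide by transcript length and depth. The submitters' processing notes also name DESeq2 1.30.1, and the deposited fold changes and p-values of the authors' own comparisons were not used.

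Expected counts were rounded to whole numbers, and protein-coding genes (GENCODE vM21) with a value in every library of a fit and above 0.5 CPM in at least 4 of them were tested, 12392 in Tregs, where genes of all biotypes would be 14982 and empty cells read as 0 would give 12421. Shares of all genes are shares of the tested genes. The tests were edgeR 4.0.16 quasi-likelihood fits (R 4.3.3) with TMM scaling and Benjamini-Hochberg adjustment over all tested genes, at a threshold of 0.1: all 32 Treg libraries by group, all 16 Tcon libraries additively by treatment and arm, and 16 Treg with 16 Tcon libraries with the mouse as a block. Intervals are 1.96 SE. The Ctla4 to Cd28 ratio was tested by exact permutation in R, two-sided. Scripts were tested on simulated data. DESeq2 1.42.0, limma 3.58.1 on log2(FPKM + 1), other filters and scalings and the leaving out of each library were tried.

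The members and the gene lists were chosen with earlier results of these data known. Named besides the members were Foxp3 and Il2ra, up to 4 genes of each list past the threshold with the largest change under H16R or 3x with isotype and a mean above 1 CPM, and 2 genes most alike to each member, which for Icos are not reported here. Total expected counts were 18280000 to 51240000 per Treg library and 31310000 to 51950000 per Tcon library, and p-values cover the spread between these mice. The coordinates of genes came from GENCODE vM21, and start regions from RefSeq.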

Additional observations from a re-analysis of the deposited data

Results flagged for a closer look

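Each of the 9 members was tested in each of the 8 Treg groups of 4 libraries for a library far from the others, and of these 72 tests 1 found such a library: Icos in WT isotype replicate 2, at 509 CPM against 385 to 404 CPM in the rest of its group. Chance gives about 1 in 20 such tests.

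The response to WT against PBS differed between antibody arms, being lower with MHC II block on the log2 scale, for Lag3 (-1.51), Tigit (-1.17), Pdcd1 (-0.79), Icos (-0.73) and Ctla4 (-0.53). The response to 3x differed by 1.48 for Havcr2, 1.28 for Lag3, 1.01 for Pdcd1, 0.39 for Icos, 0.31 for Tigit and -0.30 for Btla, and that to H16R by 0.82 for Havcr2.

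The effect of the block differed between H16R and WT by 1.98 for Lag3, 1.26 for Havcr2, 1.14 for Tigit, 0.99 for Pdcd1, 0.91 for Icos and 0.71 for Ctla4. Between 3x and WT it differed by 2.79 for Lag3, 1.92 for Havcr2, 1.80 for Pdcd1, 1.48 for Tigit, 1.12 for Icos, 0.80 for Ctla4 and -0.35 for Btla.

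The signed difference between Tregs and Tcons of a mouse, Tregs minus Tcons, was higher with WT than with PBS by 1.21 for Pdcd1, 1.12 for Lag3, 0.82 for Tigit, 0.74 for Icos, 0.68 for Cd200 and 0.60 for Btla. With H16R it was higher by 1.93 for Lag3, 1.56 for Pdcd1, 1.5 for Havcr2, 1.44 for Tigit, 0.97 for Icos, 0.84 for Cd200, 0.70 for Ctla4, 0.62 for Cd28 and 0.60 for Btla. With 3x it was higher by 1.78 for Havcr2, 1.61 for Lag3, 1.49 for Pdcd1, 1.47 for Tigit, 1.23 for Icos, 0.97 for Ctla4, 0.73 for Cd28, 0.66 for Cd200 and 0.40 for Btla. For Btla, which was lower in Tregs of PBS mice, this moved the difference towards 0 with 3x and above 0 with WT and H16R. Each of these differences was tested as a term of the edgeR fit.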

How the results depend on the processing

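Pooled over each family of comparisons, counts of called members stayed within 1.5 times under the alternatives, apart from those in Tcons. Of single comparisons, MHC II block against isotype in PBS Tregs gave 1 call with edgeR and 2 with DESeq2 and with limma. In Tcons, MHC II block against isotype gave 2 calls, 1 with genes of all biotypes and 1 to 4 when single libraries were left out. IL-2 against PBS in Tcons gave 6 calls, and 4 to 14 when single libraries were left out, 14 without isotype WT replicate 2. Without that library Ctla4 (-0.53) and Lag3 (-0.69) in Tcons with WT changed sign and were called, with ranges of -0.53 to 0.44 and -0.69 to 0.61 over single libraries left out; the cause was not tested. In Tregs the 20 calls against PBS with isotype were 20 with DESeq2 and 21 with limma on log2(FPKM + 1), and 18 to 21 when single libraries were left out. Replicate numbers did not pair the Treg libraries (mean r = 0.00556 between libraries of the same number, 12 of 32 nearest to their own number). The replicate block gave 20 such calls; with it Ctla4 was called (0.28, adjusted p = 0.0996) and Tigit was not (0.31, adjusted p = 0.102) in the 3x response by arm, and it changed no other call. Without the mouse as a block the calls of Tregs against Tcons by treatment were 48 in place of 55. Tcon groups of 2 limit what could be called there.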
